A study of Mus musculus with 6 samples.

Results

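The transcription factors that direct CD8 T cells toward effector or memory fates were followed in cells treated with itaconate. The set held 10 genes, chosen by symbol: Tbx21, Eomes, Prdm1, Bcl6, Tcf7, Lef1, Id2, Id3, Bach2 and Runx3. All 10 were found among the 55487 genes of the deposited tables. RNA was sequenced from CD8 T cells of C57BL/6 mice, the lymphocytes that recognise and kill infected or malignant cells. The itaconate group, with 3 libraries, received 5 mM itaconate, a dicarboxylic acid made by activated macrophages. The control group, also with 3 libraries, received NaCl, and both groups were kept for 48 h. The sources used here do not give the age of the mice or how the cells were isolated, activated and pooled. The labels do not say whether replicates were separate animals or cultures, so each p-value reflects library-to-library spread only, and that spread may be technical.

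After activation a CD8 T cell can become a short-lived effector or a memory cell, and opposing transcription factors set the balance. T-bet (Tbx21), BLIMP-1 (Prdm1) and ID2 favour terminal effector cells, while TCF1 (Tcf7), LEF1, BCL6, ID3 and BACH2 favour naive, stem-like or memory cells. EOMES, a relative of T-bet, takes part in both cytotoxicity and memory upkeep, and RUNX3 maintains the CD8 lineage and its cytotoxic genes. Several act by blocking each other: BLIMP-1 and BCL6 are mutual repressors, BACH2 represses Prdm1, and the ID proteins hold E-protein transcription factors away from DNA.

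Itaconate-treated cells had less Prdm1 and Id2 mRNA and slightly more Eomes mRNA than control cells. Prdm1 fell to 0.600 of the control level (95% interval 0.483 to 0.745), Id2 fell to 0.784 (0.682 to 0.903), and Eomes rose to 1.20 times control (1.07 to 1.34). The other 7 factors, among them Tcf7, the most abundant, and Tbx21, did not pass the test. These calls were not equally steady. Across 15 other analyses Prdm1 was called in 13, Id2 in 9, Eomes in 5, Tbx21 and Bach2 in 4 each and Tcf7 in 1. All 10 passed the filter on low counts, so 3 of 10 were called, where 12.0% of the 12350 tested genes were called. Of the 10 members 1 was called higher and 2 lower, where 6.68% of tested genes were called higher and 5.36% lower. In bulk RNA, fewer cells of a type and less RNA per cell cannot be told apart. The median log2 fold change over the 10 was -0.05, against 0.0059 over all tested genes. The test was edgeR's quasi-likelihood test on the authors' expected counts, adjusted by Benjamini-Hochberg over all tested genes, and a gene was called at an adjusted p under 0.05.

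**Figure D1:**
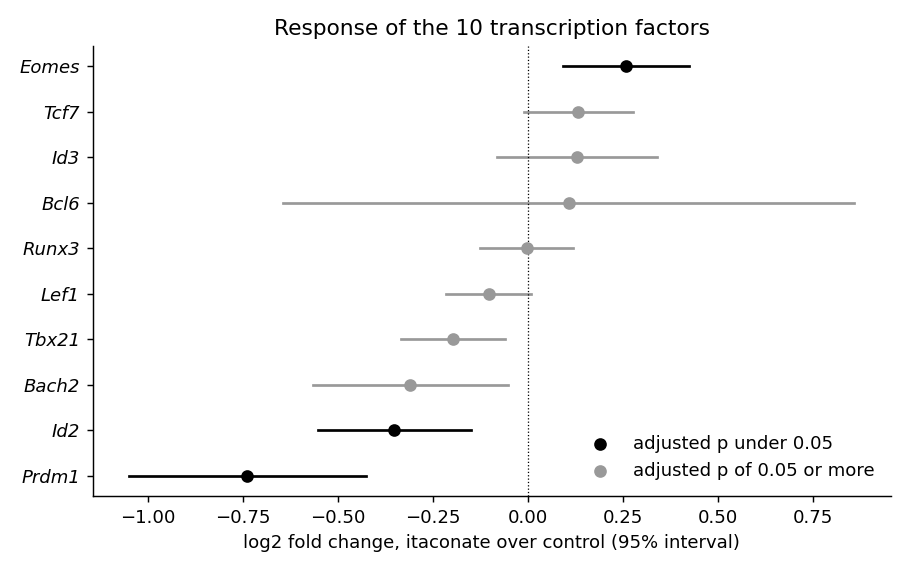
Log2 fold change of each of the 10 factors, itaconate over control, from edgeR; points are estimates and bars 95% intervals, black where the adjusted p was under 0.05. Prdm1 (-0.74) and Id2 (-0.35) lie below 0 and Eomes (0.26) above it; the widest interval is that of Bcl6, the gene with the fewest reads.

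The promoters of the members that fell are shown because both genes moved down together. They are RefSeq windows of GRCm38.p6 that reach from 250 bases before to 50 bases after the transcription start, written 5′ to 3′ on the minus strand. Prdm1 lies at chr10:44458699-44458998 and Id2 at chr12:25096043-25096342. Capitals mark matches to the 7 searched motifs.

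Prdm1: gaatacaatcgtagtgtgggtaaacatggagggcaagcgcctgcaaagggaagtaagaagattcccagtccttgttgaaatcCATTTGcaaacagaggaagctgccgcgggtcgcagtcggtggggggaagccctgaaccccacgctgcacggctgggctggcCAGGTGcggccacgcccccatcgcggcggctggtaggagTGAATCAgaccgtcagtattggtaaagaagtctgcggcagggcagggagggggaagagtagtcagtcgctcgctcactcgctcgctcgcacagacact

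Id2: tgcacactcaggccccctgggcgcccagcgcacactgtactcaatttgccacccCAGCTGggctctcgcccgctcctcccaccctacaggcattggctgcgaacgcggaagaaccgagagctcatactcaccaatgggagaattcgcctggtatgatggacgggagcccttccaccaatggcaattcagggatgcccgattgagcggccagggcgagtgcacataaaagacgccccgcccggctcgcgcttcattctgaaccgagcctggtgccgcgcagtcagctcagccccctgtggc

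In the Prdm1 window the capitals mark a pair of E-boxes (letters CANNTG, the site of E proteins), starting at -168 and -87 from the start site, and a match to the AP-1 or BACH core TGANTCA, starting at -48. The AP-1 family and BACH2 prefer C or G at the middle base of that core, where this match has another base. The Id2 window held 1 E-box, starting at -196. On both strands, CANNTG was found in 72.3% of all 32851 promoter windows of the same length and TGANTCA in 7.81%. Of 16 windows of the 10 members, 12 held CANNTG and 1 held TGANTCA. Not all of these windows were separate, as those of Lef1 starting at 131110047 and 131110073 overlapped and shared an E-box. The other letters searched were CTTTGA for TCF and LEF factors (in 16.0% of all windows and 3 member windows), TGTGGT for RUNX factors (16.8% and 1) and GGTGTGA for T-box factors (3.98% and 0). GAAAGT, a BLIMP-1 core, was in 14.3% of all windows and 2 member windows, and ACGTG, a hypoxia element, in 19.6% and 2. A match is a description of these letters and does not show that a factor was bound.

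The libraries held between 18280217 and 31643408 expected counts. Control replicate 1 had the highest mitochondrial share, 1.94% of counts against 1.25% to 1.55% in the others, and the longest fragment correction, 258.6 bases against 229.2 to 239.1. Over all genes, 825 were called higher and 662 lower, while limma on log2(TPM + 1) called 120 higher and 199 lower. Markers of CD8 T cells were high in every library: Cd8a, the CD8 alpha chain, averaged 645 ± 14 CPM in itaconate and 497 ± 27 CPM in control libraries (SD, n = 3 each). Of 11 CD8 T cell markers, Cd8a rose (log2 fold change 0.38 ± 0.049, SE) and Cd5, an inhibitory receptor, fell (-0.37 ± 0.069). The summed level of these markers was 3035 to 3073 CPM in itaconate and 2836 to 2911 CPM in control libraries. Of 6 NK cell markers none reached the filter, and their sum was 0.198 to 2.23 CPM in itaconate and 0.387 to 1.59 CPM in control libraries. Of 8 B cell markers, 7 were tested and none was called, with a sum of 295 to 321 CPM in itaconate and 273 to 292 CPM in control libraries. Ighm, the IgM heavy chain, made up most of their sum, at 294 ± 15 CPM in itaconate and 269.7 ± 11 CPM in control libraries. Without Ighm the sum was 10.2 to 22.6 CPM in itaconate and 12.3 to 19.7 CPM in control libraries, with Cd79b, Cd79a, Ms4a1 and Pax5 among its members. Of 11 myeloid markers, 3 were tested, none was called, and Siglech was at 0 in every library. Their sum was 36.9 to 89.1 CPM in itaconate and 48.9 to 71.4 CPM in control libraries. Without the antigen-presentation genes Cd74 and H2-Aa it was 0.555 to 3.52 CPM in itaconate and 0.742 to 1.91 CPM in control libraries. The 4 markers of CD4 T cells summed to 18.9 to 23.5 CPM in itaconate and 8.60 to 11.7 CPM in control libraries. Foxp3, the regulatory T cell factor, was the only one of these called, at 12.4 ± 2.3 and 1.87 ± 0.63 CPM (edgeR adjusted p 1.1e-05), while Cd4 was at 3.72 ± 1.9 and 3.22 ± 1.3 CPM and Zbtb7b at 5.04 ± 0.37 and 3.93 ± 0.81 CPM in itaconate and control libraries. Of 4 gamma-delta T cell markers, Trdc alone was tested and was not called, at 1.52 ± 0.12 CPM in itaconate and 1.38 ± 0.15 CPM in control libraries. The part of other cells in the results below was not tested.

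Levels were set against each other per length, as TPM (the authors' transcript abundance, corrected for length and scaled to a fixed total). In itaconate libraries the order from high to low was Tcf7, Lef1, Tbx21, Runx3, Eomes, Id3, Id2, Bach2, Prdm1 and Bcl6. In control libraries it was the same except that Id2 stood above Id3. Tcf7 averaged 131 ± 16 TPM in itaconate and 126 ± 14 TPM in control libraries, while Bcl6 averaged 0.413 ± 0.055 and 0.397 ± 0.12 TPM (SD, n = 3). Neighbours that overlapped were Tbx21 with Runx3 and Runx3 with Eomes in itaconate libraries, and Id2 with Id3 in control libraries. All other neighbours were separate in their group. The TCF1 and LEF1 genes were thus the most abundant members in both groups, and the mutual repressors BLIMP-1 and BCL6 had the least mRNA.

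**Figure D2:**
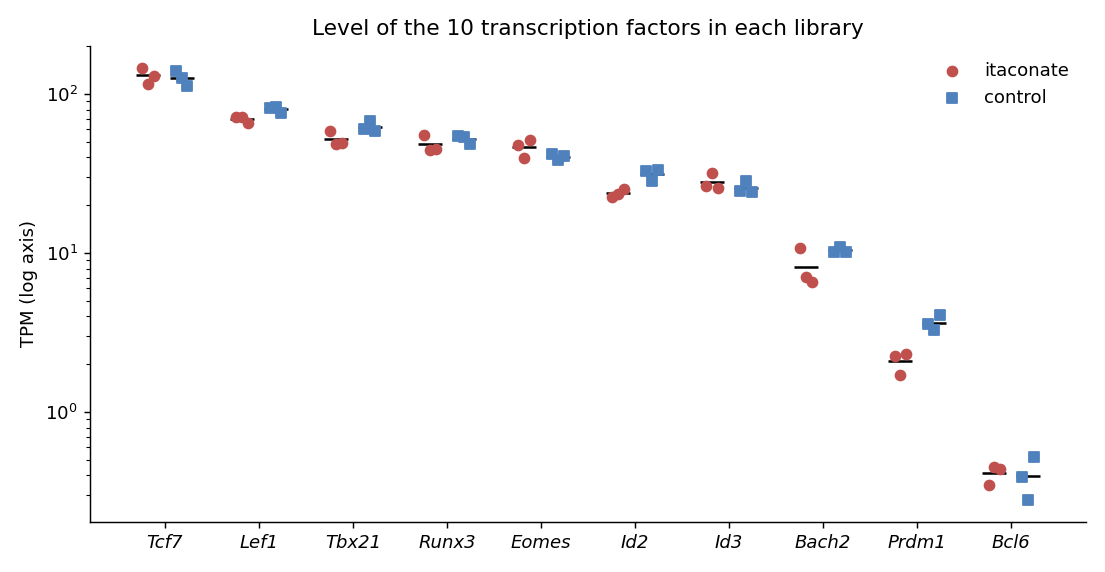
TPM of each factor in each library on a log axis, itaconate (circles) left of control (squares), with horizontal bars at group means of 3 libraries. Prdm1 and Id2 are lower in all itaconate libraries than in any control library, and Tcf7 stands highest in both groups.

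Of the T-box factors, Eomes passed the test and Tbx21 did not. Tbx21, which encodes T-bet and lies on chromosome 11, had 106.3, 94.3 and 93.1 CPM (counts scaled to library size by edgeR) in itaconate replicates 1, 2 and 3, and 106.5, 120.8 and 109.6 CPM in control replicates 1, 2 and 3. The groups did not overlap, but itaconate replicate 1 and control replicate 1 lay side by side. The log2 fold change of -0.20 ± 0.064 (SE; 95% interval -0.33 to -0.06) gave an edgeR adjusted p of 0.0616, so Tbx21 did not pass. It passed without itaconate replicate 1 (0.0226) or without control replicate 1 (0.0426). Eomes, on chromosome 9, had 122.6, 109.5 and 137.3 CPM in itaconate replicates 1, 2 and 3, and 104.9, 96.3 and 107.5 CPM in control replicates 1, 2 and 3. Every itaconate library was above every control library on this scale, and Eomes rose by 0.26 ± 0.076 (log2, SE; edgeR adjusted p 0.0477). The call is at the threshold: it was lost without control replicate 1 (0.0925), 2 (0.184) or 3 (0.0668), and without itaconate replicate 1 (0.109) or 3 (0.171). It was also lost with DESeq2 size factors (0.0517), limma-voom (0.0513), effective length offsets (0.123) and limma on both log2 TPM scales (0.323 on each). In TPM the Eomes groups overlapped, at 48.0, 39.9 and 51.5 in itaconate and 42.4, 38.5 and 40.8 in control replicates 1, 2 and 3. CPM did not overlap for 4 of the 10 members (Tbx21, Eomes, Prdm1 and Id2), where 31.2% of tested genes had no overlap. In TPM the count was also 4 (Tbx21, Prdm1, Lef1 and Id2), where 26.4% of tested genes had none.

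Of the mutually repressive pair, Prdm1 changed most. Prdm1, on the minus strand of chromosome 10 at 44437177 to 44528501 in GRCm38, encodes BLIMP-1, a zinc-finger repressor of terminal effector T cells and plasma cells. Its rounded expected counts were 174, 118 and 213 in itaconate replicates 1, 2 and 3, and 350, 242 and 499 in control replicates 1, 2 and 3. Scaled to library size these were 8.61, 6.55 and 9.14 CPM in itaconate libraries, and 13.0, 11.7 and 15.8 CPM in control libraries. The groups were well apart, with the highest itaconate library below the lowest control library. The log2 fold change was -0.74 ± 0.15 (SE; 95% interval -1.05 to -0.43; edgeR adjusted p 0.00511), and 1.97% of tested genes had a lower one. The adjusted p stayed between 0.008 and 0.0236 when any 1 library was left out. Limma did not call Prdm1 on either log2 TPM scale, with -0.59 on log2(TPM + 1) (adjusted p 0.0702) and -0.78 on log2(TPM + 0.1) (adjusted p 0.072). Bcl6, a zinc-finger repressor of memory precursors and follicular helper cells, was barely detected. It had rounded expected counts of 19, 23 and 29 in itaconate replicates 1, 2 and 3, and 27, 15 and 45 in control replicates 1, 2 and 3. The groups overlapped, and at this depth the 95% interval reached from 0.641-fold to 1.81-fold (edgeR adjusted p 0.883).

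Of the inhibitors of DNA binding, Id2 fell and Id3 did not pass. Id2, a single-domain helix-loop-helix protein that sequesters E proteins, lies on chromosome 12 at 25093799 to 25097140. It had 18.6, 20.5 and 21.7 CPM in itaconate replicates 1, 2 and 3, and 26.0, 23.1 and 28.4 CPM in control replicates 1, 2 and 3. All itaconate libraries were below all control libraries, and Id2 fell by 0.35 ± 0.095 on the log2 scale (SE; edgeR adjusted p 0.0268). The call was lost without itaconate replicate 1 (0.0893), itaconate replicate 2 (0.0736) or control replicate 3 (0.0876). It was also lost with effective length offsets (0.102) and with limma on log2(TPM + 1) (0.0512) and log2(TPM + 0.1) (0.052). Id3, its paralogue of memory precursor cells, had 21.2, 26.5 and 21.4 CPM in itaconate replicates 1, 2 and 3, and 19.8, 22.6 and 20.8 CPM in control replicates 1, 2 and 3. These values overlapped, and the log2 fold change was 0.13 ± 0.099 (95% interval -0.08 to 0.34; edgeR adjusted p 0.442). The E-protein genes Tcf3 and Tcf12, whose products both ID proteins bind, did not pass, at 232.4 ± 8.0 and 84.9 ± 1.9 CPM in itaconate libraries, against 232.2 ± 2.4 and 86.9 ± 5.7 CPM in control libraries.

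Factors of the naive and memory side did not pass. Tcf7, which encodes TCF1, an HMG-box factor of naive and stem-like cells, had 243.0, 208.3 and 225.6 CPM in itaconate replicates 1, 2 and 3, and 222.1, 204.6 and 190.5 CPM in control replicates 1, 2 and 3. The groups overlapped (log2 fold change 0.13 ± 0.066, SE; 95% interval -0.01 to 0.28; edgeR adjusted p 0.223). Lef1, its paralogue, had 127.5, 133.9 and 121.4 CPM in itaconate replicates 1, 2 and 3, and 140.1, 139.8 and 131.2 CPM in control replicates 1, 2 and 3. Only itaconate replicate 2 and control replicate 3 crossed, and the log2 fold change was -0.10 ± 0.053 (95% interval -0.22 to 0.01; edgeR adjusted p 0.233). In TPM, which differs from CPM in both transcript length and library scaling, Lef1 did not overlap, at 66.3 to 71.9 in itaconate and 76.2 to 83.3 in control libraries. Its log2 fold change was -0.14 with effective length offsets and -0.20 with limma on log2(TPM + 1). Bach2, a basic leucine zipper repressor that restrains effector genes, had 55.5, 51.2 and 46.3 CPM in itaconate replicates 1, 2 and 3, and 63.9, 72.6 and 53.4 CPM in control replicates 1, 2 and 3. Itaconate replicate 1 stood above control replicate 3, and with a log2 fold change of -0.31 ± 0.11 (95% interval -0.57 to -0.05) the edgeR adjusted p was 0.118. Bach2 passed without control replicate 3 (-0.43, adjusted p 0.00636). Runx3, the runt-domain factor that silences Cd4 and supports cytotoxic genes, was at 134 ± 10 CPM in itaconate and 134 ± 3.3 CPM in control libraries. Its interval was narrow, at 0.918-fold to 1.09-fold (edgeR adjusted p 0.988).

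Balances between known opponents or paralogues were compared inside each library, as log2 ratios of TPM with 0.1 added, for 5 pairs. In 4 of them the groups did not overlap, and each had an exact two-sided permutation p of 0.1, the smallest that 3 against 3 libraries can give (0.125 adjusted over the 5 pairs). This exact test cannot pass 0.05 with 3 libraries a group. The pairs were built from members with known results, and single tested genes did not overlap in TPM in 26.4% of cases, so the count of pairs is a description. The Tbx21 to Eomes ratio was 1.22, 1.23 and 0.954 in itaconate replicates 1, 2 and 3, and 1.43, 1.76 and 1.44 in control replicates 1, 2 and 3. The Id2 to Id3 ratio was 0.856, 0.739 and 0.990 in itaconate libraries and 1.33, 0.998 and 1.36 in control libraries, so itaconate replicate 3 and control replicate 2 nearly met. The Prdm1 to Bcl6 ratio was 5.22, 3.29 and 4.50 in itaconate libraries and 7.57, 8.89 and 6.74 in control libraries, and rests on the few reads of Bcl6. The first-named gene was lower against its partner in itaconate libraries for all 3 of these pairs. The Tcf7 to Tbx21 ratio was 2.52, 2.37 and 2.65 in itaconate libraries and 2.31, 1.86 and 1.91 in control libraries. The Bach2 to Prdm1 ratio overlapped, at 4.64, 3.99 and 2.77 in itaconate and 2.75, 3.25 and 2.47 in control libraries (exact permutation p 0.2, n = 3 each). Pairs that share a gene are not independent of each other.

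**Figure D3:**
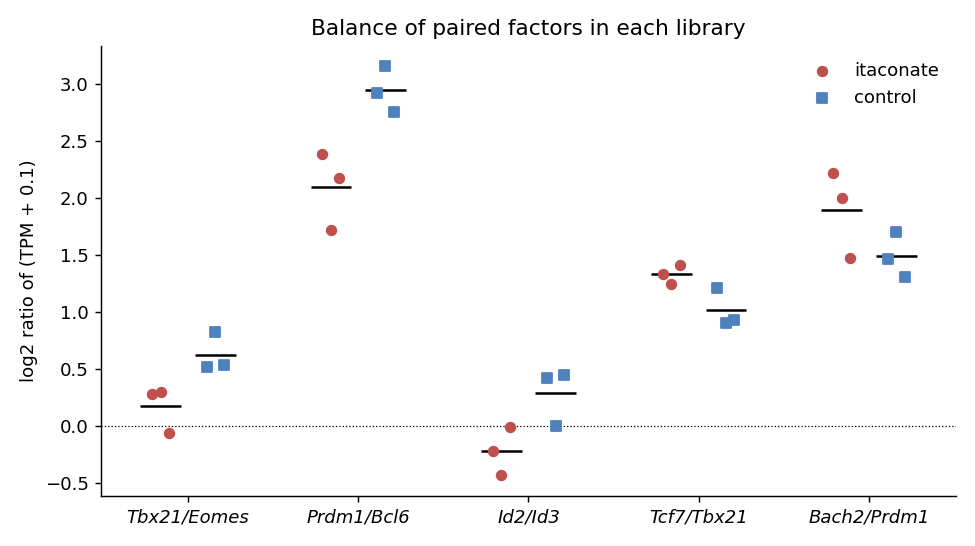
Log2 ratio of TPM + 0.1 for 5 pairs of factors in each library, itaconate (circles) left of control (squares), with bars at the means of 3 libraries. The groups do not overlap for the first 4 pairs, and overlap for Bach2/Prdm1.

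The abundance-weighted transcript length of each gene, which moves when isoform use moves, did not separate the groups for any member (exact permutation p from 0.2 to 1.0, n = 3 each; 0.75 to 1.0 adjusted over the 10). Bach2 varied most, from 6565 to 8702 bases, or by 32.5%. It has 7 transcripts in the tables, with protein-coding forms of 3462, 8493 and 8882 bases in GENCODE M21. Its length was 6584, 8630 and 8538 bases in itaconate replicates 1, 2 and 3, and 8270, 8702 and 6565 bases in control replicates 1, 2 and 3. Itaconate replicate 1, with a short value, had the highest Bach2 TPM of the itaconate group, 10.8 against 7.13 and 6.63. Because TPM is divided by length, a short value raises it by arithmetic. The CPM of itaconate replicate 1 was also the highest of its group, 55.5 against 51.2 and 46.3. Control replicate 3, also short, had the lowest CPM of its group, 53.4 against 63.9 and 72.6. Its TPM was 10.2, against 10.1 and 10.9 in control replicates 1 and 2. Tbx21 had 1 transcript and so a constant length, which fixed its result in advance. Overlapping antisense genes had few reads, with means over the 6 libraries of 33.0 counts for Gm43352 at Lef1, 13.5 for A630014C17Rik at Tcf7 and 4.83 for Gm33460 at Eomes. Prdm1, Id2, Id3 and Tbx21 overlap no other annotated gene.

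Other transcription factors of the effector or resident side moved in both directions. Of 22 tested, 2 rose, 5 fell and 15 did not pass, and their median log2 fold change was 0.03. In this list 31.8% were called, against 12.0% of all tested genes, but the lists were chosen with earlier results known. Zeb2, which works with T-bet in terminal effector cells, was at 5.27 ± 0.50 CPM in itaconate and 8.14 ± 0.79 CPM in control libraries (log2 fold change -0.62 ± 0.14, edgeR adjusted p 0.0109). The Zeb2 call was lost with effective length offsets (edgeR adjusted p 0.0712) and with limma on log2(TPM + 1) (0.152) and log2(TPM + 0.1) (0.158). Irf4, which scales with antigen receptor signal, fell to 399 ± 11 CPM in itaconate libraries, against 497 ± 12 CPM in control libraries. Stat4, the transducer of interleukin-12, fell to 95.9 ± 3.5 CPM in itaconate libraries, against 121.7 ± 6.2 CPM in control libraries, and Nfil3 fell by 0.44 ± 0.064 (log2, SE). Hic1, a zinc-finger repressor of tissue-resident T cells, rose to 24.7 ± 2.5 CPM in itaconate libraries, against 14.0 ± 0.32 CPM in control libraries, and Irf8 rose to 837 ± 43 CPM, against 615 ± 51 CPM. The list of the memory and naive side also held factors paired to the members. Of its 20 tested factors, none rose, 2 fell and 18 did not pass, with a median of -0.03. That is 10% called, where 12.0% of all tested genes were called, so the count is near the background. The fallers were Foxo3, a forkhead factor of quiescence (-0.27 ± 0.060), and Mxd4, a MAX partner that opposes MYC (-0.62 ± 0.16). Foxo3 lost its call without itaconate replicate 3 (edgeR adjusted p 0.0515), and Mxd4 without itaconate replicate 3 (0.0967) or control replicate 2 (0.0932). Both also lost it with effective length offsets (edgeR adjusted p 0.214 and 0.246) and with limma on log2(TPM + 1) (0.220 and 0.272). Foxo1, a forkhead factor of naive and memory cells, did not pass, at 104.2 ± 4.3 and 90.6 ± 7.9 CPM in itaconate and control libraries (adjusted p 0.0556).

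Of 16 tested partners and co-repressors, 2 rose, 1 fell and 13 did not pass (median -0.02). The share called was 18.8%, against 12.0% of all tested genes. Aes, a short member of the Groucho family that binds TCF1 and LEF1, rose to 322 ± 2.4 CPM in itaconate libraries, against 243 ± 16 CPM in control libraries (log2 fold change 0.41 ± 0.051, edgeR adjusted p 0.00019). Ehmt2, a histone H3 methyltransferase, rose by 0.21 ± 0.046, and did not pass once itaconate replicate 3 (adjusted p 0.0589) or control replicate 2 (0.0572) was removed. Its call was also lost with effective length offsets (edgeR adjusted p 0.106) and with limma on log2(TPM + 1) (0.376) and log2(TPM + 0.1) (0.374). Bcor, a co-repressor of BCL6, fell by 0.27 ± 0.059 on the log2 scale, and lost its call without itaconate replicate 3 (0.0589). Limma on log2(TPM + 1) and log2(TPM + 0.1) did not call Bcor either (adjusted p 0.0859 and 0.0867). Ctnnb1, which encodes beta-catenin, and the small MAF partner Mafk of BACH2 did not pass (edgeR adjusted p 0.408 and 0.664).

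Genes that mark effector cells moved both ways too. Of 26, 22 were tested, 4 rose, 3 fell and 15 did not pass, with a median log2 fold change of 0.03. The share called was 31.8%, against 12.0% of all tested genes. Il12rb2, an interleukin-12 receptor chain and T-bet target, fell to 126.9 ± 6.4 CPM in itaconate libraries, against 163.5 ± 6.1 CPM in control libraries (edgeR adjusted p 0.000555). The chemokine Ccl5 fell by 1.21 ± 0.17 (log2, SE) and the inhibitory receptor Lag3 by 0.36 ± 0.068. Il2rb, the interleukin-2 receptor beta chain that T-bet and EOMES induce, rose to 1161 ± 61 CPM in itaconate libraries, against 1026 ± 54 CPM in control libraries. The risers Il2rb, Cd44, Fasl and Gzmb were all small or unsteady: each lost its call without itaconate replicate 3 (edgeR adjusted p 0.197, 0.182, 0.0851 and 0.194) and without control replicate 2 (0.231, 0.139, 0.09 and 0.186). Each also lost it without further single libraries. For Il2rb these were itaconate replicate 1 (0.0885) and control replicate 3 (0.0764). For Cd44 they were itaconate replicate 2 (0.0627), control replicate 1 (0.0714) and control replicate 3 (0.0509). For Fasl they were itaconate replicate 2 (0.0734) and control replicate 1 (0.0571), and for Gzmb itaconate replicate 2 (0.159) and control replicate 1 (0.151). Klrg1, Cx3cr1, S1pr5 and Gzmk, also on this list of effector genes, did not reach the filter, with group means of at most 0.151 CPM.

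Naive and memory marker genes moved in opposite directions. Of 26 tested, 6 rose, 6 fell and 14 did not pass, with a median of -0.04. The share called was 46.2%, against 12.0% of all tested genes, in a list chosen with earlier results known. Ccr7, a chemokine receptor of lymph node homing, fell to 222 ± 13 CPM in itaconate libraries, against 279.7 ± 15 CPM in control libraries (log2 fold change -0.33 ± 0.055, edgeR adjusted p 0.00143). Slamf6, a receptor of stem-like cells, fell by 1.12 ± 0.12 and the sialyltransferase gene St6gal1 by 0.98 ± 0.093 (log2, SE). Among the risers were Cxcr5, a follicle-homing receptor, at 15.3 ± 0.84 CPM in itaconate and 8.42 ± 0.24 CPM in control libraries, and Treml2, at 113.2 ± 1.8 and 68.3 ± 4.1 CPM. Igfbp4, an insulin-like growth factor binding protein, rose by 1.01 ± 0.13 and the kinase gene Txk by 0.47 ± 0.092. Il7r, the interleukin-7 receptor that marks memory precursors, did not pass (0.18 ± 0.069, edgeR adjusted p 0.116). Foxo1, Il7r, Tcf3, Tcf12, Ctnnb1, Mafk and the untested effector markers were named after their values were seen.

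**Figure D4:**
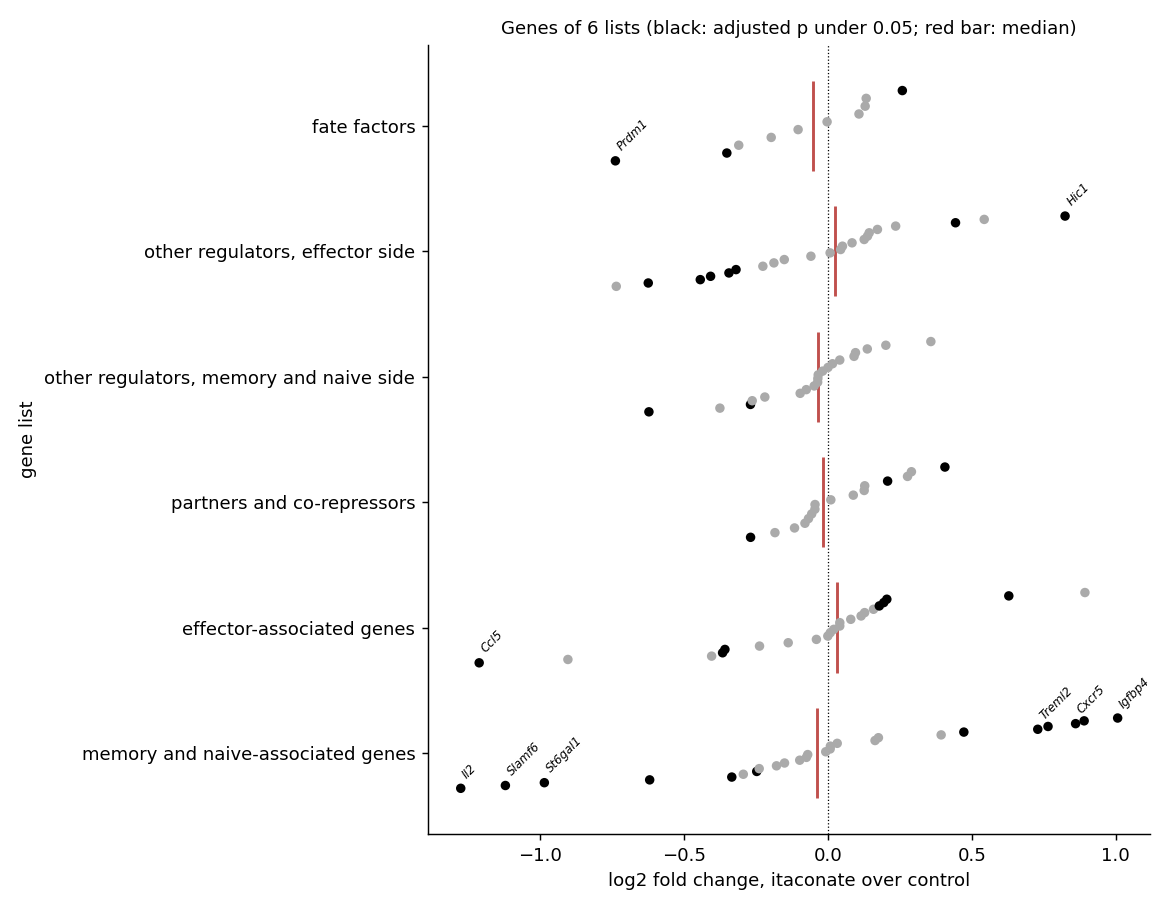
Log2 fold change of every tested gene in 6 lists, itaconate over control, with called genes in black, other genes in grey and the list median as a red bar. Medians lie close to 0 in all 6 lists; Ccl5 falls beyond -1 among effector genes, and naive and memory genes range from Slamf6 and Il2 below -1 to Igfbp4 at 1.01.

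The tested genes closest in pattern to each called member were found by the root mean square difference of log2 CPM, centred on the control mean, over the 6 libraries, among 8956 genes with at least 5 CPM. For Prdm1 they were Rpph1 (0.107), Ifi209 (0.131) and Gpr183 (0.161). For Id2 they were Polr2d (0.0691), Supt4a (0.0709) and Nampt (0.0713), and for Eomes they were Adcy6 (0.0428), Tnfsf10 (0.0498) and Lrp8 (0.0515). Of these genes, Adcy6, Tnfsf10 and Gpr183 did not pass the edgeR test.

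**Figure D5:**
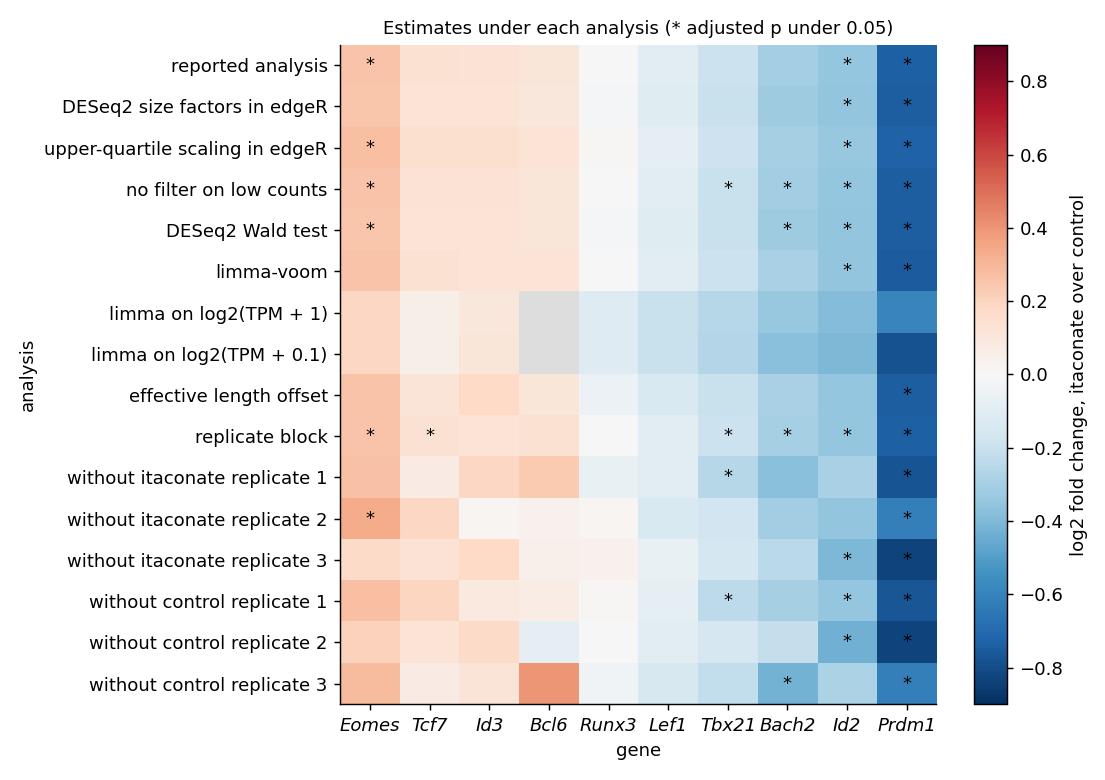
Log2 fold change of each factor (columns) under the reported analysis and 15 other analyses (rows), with stars where the adjusted p was under 0.05 and grey where a gene was not tested. Prdm1 is starred in all but the analyses of log2 TPM, while Eomes, Id2, Tbx21 and Bach2 gain or lose stars between rows.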

How the data were processed

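RNA-seq profiles of 3 itaconate and 3 control libraries were used. The authors deposited a gene table for each library, whose headers are those RSEM writes. Its expected count column holds the authors' unnormalised read estimates. Its TPM column holds the authors' abundances, corrected for effective length, and the FPKM column deposited by the authors was not used. Transcript lengths in bases, and effective lengths, also come from these deposited tables. Bowtie 0.12.2 and the builds mm8 and mm10 come from the submitters' processing notes. The sources used here give no RSEM version, annotation or strand setting, so reads of overlapping genes on opposite strands cannot be told apart.

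Expected counts were rounded and tested with edgeR 4.0.16 in R 4.3.3 (TMM factors between 0.987 and 1.02, quasi-likelihood, robust, minimum count 10, minimum total 15; two-sided), itaconate against control without a block. Standard errors come from the F statistic. The script was tested on simulated data. Alternatives were DESeq2 1.42.0, limma 3.58.1 on voom values and on log2 TPM (genes of at least 1 TPM in 3 libraries), other scalings, no filter, effective length offsets, a replicate block, and leaving out each library. Counts of any pair of libraries within a group differed beyond sampling noise (chi-square per gene 4.93 to 16.5), so none was a second copy of another. Counting precision follows from the totals of 18280217 to 31643408 per library. Positions and gene classes come from GENCODE M21 (GRCm38), which held 99.8% of the gene identifiers, and promoters from RefSeq (GRCm38.p6), which matched all 10 members. The members and gene lists were chosen with earlier results of these data known. Named genes are all members, up to 4 risers and 4 fallers per list with the smallest adjusted p, other-cell markers of at least 1 CPM, and the 3 genes closest in pattern to each called member. A few genes chosen this way are left out of the text.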

Additional observations from a re-analysis of the deposited data

How the results depend on the processing

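Of the 10 factors, 3 were called, and 2 to 3 when any 1 library was left out. Only Prdm1 was called whichever library was left out. Beside it stood Id2, Eomes, Tbx21 or Bach2, depending on the library. The count was 5 with no filter on low counts, 1 with effective length offsets and 0 with limma on log2(TPM + 1) or log2(TPM + 0.1), where 4 had an unadjusted p under 0.05 and Bcl6 was under the TPM filter. DESeq2 called 4. Over all genes 1487 were called, 567 with length offsets, 319 and 305 on the log2 TPM scales, and 726 to 1400 without 1 library (896 and 835 with itaconate replicate 2 or 3 left out, 726 with control replicate 2 left out). No filter gave 1993 of 21978 tested genes, and DESeq2 gave 1299 of 21973 genes with a p-value. The direction of each called factor was the same in all 15 alternatives. Directions of uncalled factors turned for Bcl6 without control replicate 2 (-0.089) and for Runx3 with upper-quartile scaling (0.010), without itaconate replicate 2 (0.018) or 3 (0.039), or without control replicate 1 (0.0084). With 1 library left out, the log2 fold change of Bcl6 ran from -0.089 to 0.39 and that of Runx3 from -0.066 to 0.039.

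Same-numbered libraries of the 2 groups correlated at 0.113, 0.0305 and 0.0034 in their deviations from the group means. Libraries with different numbers correlated at -0.093 to 0.066, so these values do not settle whether the libraries were paired. With the replicate block 6 of the 10 factors were called (Tbx21, Tcf7 and Bach2 besides Prdm1, Id2 and Eomes), and 2419 of all 12350 tested genes. It also gave 11 of 22 other effector-side factors, 4 of 20 memory-side factors, 6 of 16 partners and 12 of 22 effector genes.

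Without the block, the effector-side factors called ran from 6 to 8 with 1 library left out. The memory-side factors ran from 0 (without itaconate replicate 3, where 6 had an unadjusted p under 0.05) through 1 (without control replicate 2) to 4 (without control replicate 1), and were 0 with both log2 TPM scales and with length offsets, where limma gave 2 and edgeR 3 with an unadjusted p under 0.05. Partners ran from 1 (without itaconate replicate 3) to 4, and were 1 on both log2 TPM scales. Effector genes ran from 3 (without control replicate 2) and 4 (without itaconate replicate 3) to 6, and were 11 with no filter and 3 on both log2 TPM scales and with length offsets. The memory and naive genes called ran from 10 to 14. The causes of these shifts were not tested. All 5 pair ratios kept their direction and moved by less than the spread between replicates. Few reads limit Bcl6 and, less so, Prdm1.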
